A study of Homo sapiens with 6 samples.

Results

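The Polycomb repressive complex genes examined here are EZH2, EZH1, SUZ12, EED, JARID2, PHF19 and MTF2 of PRC2 and BMI1, CBX2 and RING1 of PRC1. They were taken by gene symbol, as 10 of the 35474 genes listed, and all 10 passed the filter on low counts. A549 is an established human lung adenocarcinoma line grown as a monolayer. RNA was taken 48 h after transfection of A549 cells with an siRNA against BAP18 (3 cultures, siBAP18) or with a non-specific siRNA (3 cultures, siCtrl), and the series calls these biological replicates. All 6 cultures came from the same line and all received an siRNA, so no untransfected sample enters any comparison. The study asked which genes depend on BAP18, a chromatin-associated protein encoded by C17orf49, and the siRNA sequence used for these cultures is not named.

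Polycomb proteins keep genes silent by marking histones. PRC2 methylates lysine 27 of histone H3 through EZH2 or EZH1, which work only in a complex with SUZ12 and EED, and accessory subunits such as JARID2, PHF19 and MTF2 guide it to CpG islands. PRC1 places ubiquitin on histone H2A through RING1 or RNF2 paired with a PCGF protein such as BMI1, and CBX proteins let it read the PRC2 mark. In many carcinomas, lung included, EZH2 is high in dividing cells, where its promoter is a known target of E2F factors.

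Libraries held 42094524 to 56548620 counts, and each member had at least 278 counts in every library. C17orf49 was lower in siBAP18, at 13.96, 16.14 and 15.07 CPM in siCtrl and 2.20, 2.34 and 2.66 CPM in siBAP18, a log2 fold change of −2.65 (SE 0.11, edgeR quasi-likelihood test, adjusted p = 7.32e-16). CPM values are read counts relative to the library size after TMM scaling, and fold changes are siBAP18 over siCtrl throughout. The 5 epithelial markers summed to 4368 to 4660 RPKM in siCtrl and 3680 to 4270 RPKM in siBAP18. Of them 3 were lower and 1 higher (edgeR quasi-likelihood test, adjusted p under 0.05, beside 25.1% and 24.5% of all genes). The 5 NRF2-driven genes typical of A549 summed to 3277 to 3347 RPKM in siCtrl and 2217 to 2352 RPKM in siBAP18. In the same test 4 of these were lower and 0 higher. Markers of fibroblasts, leukocytes and endothelial cells summed to at most 1.40, 0.896 and 0.165 RPKM in any library. Change was widespread, since 49.6% of the 20776 genes tested had an adjusted p under 0.05 by edgeR's quasi-likelihood test (Benjamini-Hochberg), 25.1% lower and 24.5% higher. In bulk RNA, fewer cells of a type and less RNA per cell cannot be told apart.

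The change also moved with base composition. Across the 20581 tested genes with a transcript sequence, log2 fold change and GC content had a Spearman rho of 0.265, given as a description. The median log2 fold change ran from −0.27 in the fifth of genes poorest in GC to 0.12 in the richest. Library by library, the deviation from the siCtrl mean had a rho with GC content of 0.239, 0.166 and 0.346 in siBAP18 replicates 1, 2 and 3, and between −0.0622 and 0.0534 in the siCtrl libraries, each set against the other siCtrl libraries. The members span this range, from 33.0% GC in EED to 61.6% in RING1. Each member is therefore given with its value from an alternative fit that carried offsets for GC content and length. The part of base composition in the members' changes was not tested beyond that fit.

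Promoters are shown first, because EZH2 is a textbook E2F target and the same E2F words could be sought in all members. RefSeq promoters on GRCh38.p14, running from 250 bases before to 50 bases after each start, were at hand for 9 of the 10 members, with 13 promoters in all, and CBX2 had no entry. The words sought on both strands were TTTCCCGC, TTTCGCGC, TTTGCCGC and TTTGGCGC. At least 1 of them stood in a promoter of 5 members, and in none for EED, JARID2, BMI1 and RING1. Counted by promoter, 5 of the members' 13 held a word, beside 3.31% of all 35116 promoters and 4.58% of the 16675 promoters of genes tested. Counted by gene, 6.22% of the 11493 tested genes with a promoter held one. A match is a stretch of letters, not a binding site. The 5 promoters are printed 5′ to 3′ on the gene's strand, with the word in capitals.
EZH2, chr7:148884242-148884541, minus strand: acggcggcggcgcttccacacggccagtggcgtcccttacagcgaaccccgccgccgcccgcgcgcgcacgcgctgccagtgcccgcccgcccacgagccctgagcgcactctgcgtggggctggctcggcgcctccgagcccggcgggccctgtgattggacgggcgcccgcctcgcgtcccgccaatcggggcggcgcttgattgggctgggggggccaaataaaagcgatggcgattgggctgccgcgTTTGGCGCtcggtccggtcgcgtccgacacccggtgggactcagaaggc
SUZ12, chr17:31936757-31937056, plus strand: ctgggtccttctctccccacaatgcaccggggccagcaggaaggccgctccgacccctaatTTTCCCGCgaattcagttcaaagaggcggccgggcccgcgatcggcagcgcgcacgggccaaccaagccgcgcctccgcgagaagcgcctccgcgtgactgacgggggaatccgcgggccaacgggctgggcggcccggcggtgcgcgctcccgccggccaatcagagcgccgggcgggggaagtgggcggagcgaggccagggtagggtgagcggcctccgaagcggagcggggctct
MTF2, chr1:93079033-93079332, plus strand: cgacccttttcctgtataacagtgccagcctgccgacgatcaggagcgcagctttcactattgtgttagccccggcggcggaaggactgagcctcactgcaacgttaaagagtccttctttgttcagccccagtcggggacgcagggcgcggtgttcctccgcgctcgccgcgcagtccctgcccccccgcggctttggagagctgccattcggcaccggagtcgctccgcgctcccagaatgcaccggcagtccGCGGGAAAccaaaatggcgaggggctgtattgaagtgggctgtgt
EZH1, chr17:42744991-42745290, minus strand: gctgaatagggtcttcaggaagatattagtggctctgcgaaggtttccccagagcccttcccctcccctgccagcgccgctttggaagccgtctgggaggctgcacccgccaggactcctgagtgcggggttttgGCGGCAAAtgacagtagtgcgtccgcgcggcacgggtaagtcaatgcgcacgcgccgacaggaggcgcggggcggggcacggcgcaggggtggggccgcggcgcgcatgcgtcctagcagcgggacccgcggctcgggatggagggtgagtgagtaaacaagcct
PHF19, the second of its promoters, chr9:120877139-120877438, minus strand: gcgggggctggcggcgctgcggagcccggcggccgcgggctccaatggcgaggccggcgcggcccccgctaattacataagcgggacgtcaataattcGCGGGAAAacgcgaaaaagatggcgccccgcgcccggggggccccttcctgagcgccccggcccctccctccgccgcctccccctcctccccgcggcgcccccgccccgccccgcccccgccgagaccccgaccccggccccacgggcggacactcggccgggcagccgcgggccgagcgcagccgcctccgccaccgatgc
Counted from 1 at the start base, with negative numbers before it, the word began at 2 in EZH2, 6 in MTF2, −189 in SUZ12, −115 in EZH1 and −152 in PHF19. EZH2, MTF2 and SUZ12 were lower in siBAP18 and EZH1 and PHF19 higher, so the genes with a word did not share a direction.

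In edgeR's quasi-likelihood test, 7 of the 10 members passed an adjusted p of 0.05, beside 49.6% of all genes tested. EZH2, SUZ12, JARID2 and MTF2 fell (4 of 10, beside 25.1%), and EZH1, PHF19 and RING1 rose (3 of 10, beside 24.5%). None also passed an absolute log2 fold change of 1, beside 8.46% of all genes (3.74% lower, 4.72% higher). The 7 were also the members whose groups did not overlap, beside 56.6% of all genes (29% lower, 27.6% higher). The median log2 fold change was −0.11 over the members and 0.0010 over all genes tested. With the GC and length offsets, 5 members were lower and 4 higher, beside 23.9% and 26% of all 20581 genes in that fit.

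**Figure D1:**
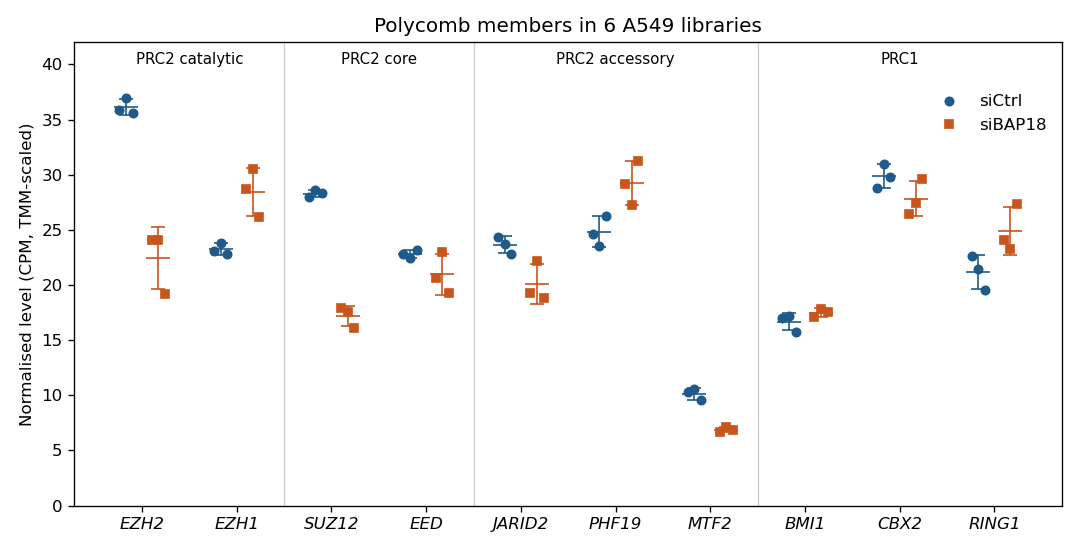
Level of each member in every library, in CPM after TMM scaling. Circles are siCtrl and squares siBAP18, and bars give the mean and SD of 3 libraries. EZH2 and SUZ12 sit apart, with siCtrl at 27.96 CPM or more and siBAP18 at 24.10 CPM or less, while EED, BMI1 and CBX2 overlap between groups.

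EZH2, the main catalytic subunit of PRC2 in dividing cells, fell and EZH1, its paralogue that prevails in resting tissue, rose. EZH2 (chr7:148807383-148884321, minus strand) stood at 35.87, 37.00 and 35.58 CPM in siCtrl and at 24.10, 24.09 and 19.20 CPM in siBAP18. The lowest siCtrl library lay well above the highest siBAP18 library. The log2 fold change was −0.68 (95% interval −0.85 to −0.51, edgeR quasi-likelihood test, adjusted p = 1.28e-07), 37.7% lower on the linear scale. With GC and length offsets it was −0.55 (adjusted p = 1.40e-07, same test).

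EZH1 (chr17:42700275-42745049, minus strand) stood at 23.07, 23.85 and 22.83 CPM in siCtrl and at 28.74, 30.49 and 26.13 CPM in siBAP18. All siBAP18 libraries were above all siCtrl libraries. It rose by 0.29 on the log2 scale (95% interval 0.14 to 0.45, edgeR quasi-likelihood test, adjusted p = 0.00199), and 0.25 with GC and length offsets (adjusted p = 0.00192). In limma on log2(RPKM + 1) without a filter its adjusted p was 0.0780.

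Set against each other per length of exon, the pair shifted. The ratio of EZH2 to EZH1 RPKM was 2.40, 2.40 and 2.41 in siCtrl and 1.30, 1.22 and 1.14 in siBAP18. EZH2 was thus the higher of the pair in every library, and the groups did not overlap. EZH2 made up 70.6% ± 0.0447 of the summed RPKM in siCtrl and 54.9% ± 1.63 in siBAP18 (SD, n = 3 each, exact permutation test, two-sided p = 0.1, the smallest that 3 against 3 can give). The difference between the log2 fold changes of EZH2 and EZH1 was −0.98, and −0.80 with GC and length offsets. The sum of both was 11.3 ± 0.362 RPKM in siCtrl and 9.08 ± 1.22 RPKM in siBAP18 (SD, n = 3, exact permutation p = 0.1).

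Of the core subunits that both enzymes need, SUZ12 fell and EED did not pass the test. SUZ12 (chr17:31937018-32001045, plus strand), which scaffolds the complex, stood at 27.96, 28.58 and 28.35 CPM in siCtrl and at 17.89, 17.56 and 16.12 CPM in siBAP18. The siCtrl libraries lay within 1 CPM of each other, and every siBAP18 library was more than 10 CPM below them. The log2 fold change of −0.72 (95% interval −0.87 to −0.56, edgeR quasi-likelihood test, adjusted p = 1.25e-08) was the lowest of the 10 members. With GC and length offsets it was −0.38 (adjusted p = 1.46e-05).

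SUZ12 also carries letters that match some of the siRNAs the study describes. A guide strand can act on a 3′ UTR through its seed, as a microRNA does, so the 7-letter word opposite each guide's seed was sought in the longest GENCODE 29 3′ UTR of each member. The word of siBAP18#3, ACTCAAC, was in SUZ12 and in no other member, beside 6.85% of 13614 genes. The word of siBAP18#1, AATCACA, was in SUZ12 and CBX2 (14.1% of genes), and that of siBAP18#2, AAGATTC, in PHF19 and MTF2 (11.2%). The word of siCtrl, TGTCACG, was in none of the 10 (3.02%). The 4 sites in PRC2 members are printed because these members passed the test, with the word in capitals and 10 bases on either side, and the word is followed by an A in SUZ12 for siBAP18#3 and in PHF19 for siBAP18#2.
SUZ12, siBAP18#3, word at chr17:31999261-31999267, plus strand: gtatttttaaACTCAACaaatgtcatc
SUZ12, siBAP18#1, word at chr17:31999801-31999807, plus strand: ttaattagatAATCACAcggaaaatta
PHF19, siBAP18#2, word at chr9:120855741-120855747, minus strand: caccttcaaaAAGATTCatggttttta
MTF2, siBAP18#2, word at chr1:93138030-93138036, plus strand: gagtcccgtgAAGATTCctgaaatgtc
SUZ12 and MTF2 fell and PHF19 rose, and which siRNA these cultures received is not stated. Any part of such words in the changes was not tested.

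EED (chr11:86244544-86278813, plus strand), which binds the methylated histone tail, stood at 22.85, 22.45 and 23.15 CPM in siCtrl and at 20.68, 22.95 and 19.23 CPM in siBAP18. Replicate 2 of siBAP18 lay inside the siCtrl range and the groups overlapped. The log2 fold change was −0.12 (95% interval −0.28 to 0.04, edgeR quasi-likelihood test, adjusted p = 0.210). The direction depended on the fit, since with GC and length offsets it was 0.28 (adjusted p = 7.24e-04), and without siBAP18 replicate 2 it was −0.19 (adjusted p = 0.0381). EED had the lowest GC content of the members. SUZ12 and EED together summed to 7.56 ± 0.0920 RPKM in siCtrl and 5.63 ± 0.575 RPKM in siBAP18 (SD, n = 3, exact permutation p = 0.1, the smallest possible).

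**Figure D2:**
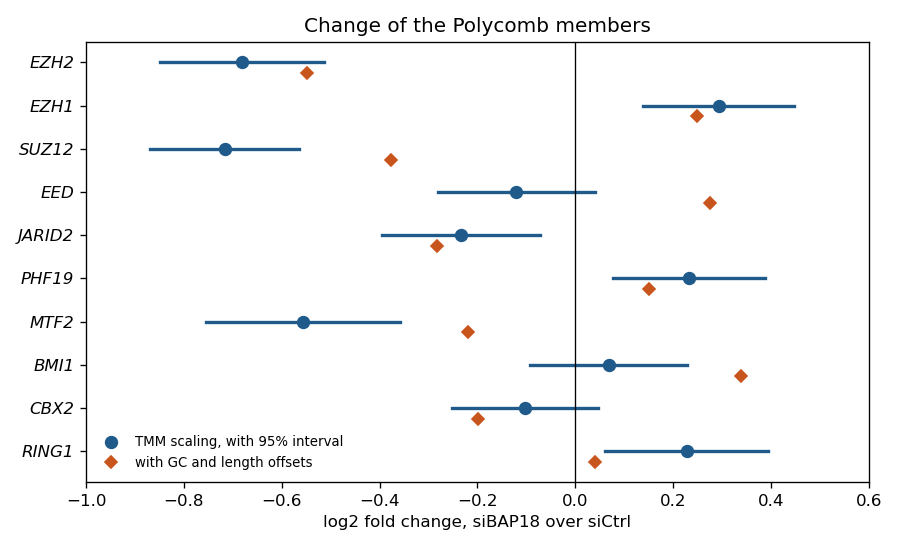
Log2 fold change of each member, siBAP18 over siCtrl, with circles and 95% intervals from TMM scaling and diamonds from the fit with GC and length offsets. EZH2, SUZ12, JARID2 and MTF2 stay below 0 and EZH1 and PHF19 above 0 in both, whereas EED crosses from −0.12 to 0.28.

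The accessory subunits divided. JARID2, a DNA-binding subunit that helps recruit PRC2, and MTF2, a Polycomb-like protein that binds CpG islands, fell, while PHF19, another Polycomb-like protein that is often high in tumours, rose. MTF2 (chr1:93079235-93139081, plus strand), the lowest of the members in CPM and per length of exon, stood at 10.26, 10.57 and 9.54 CPM in siCtrl and at 6.65, 7.14 and 6.85 CPM in siBAP18. Its groups did not overlap. On the log2 scale it changed by −0.56 (95% interval −0.76 to −0.36, edgeR quasi-likelihood test, adjusted p = 3.01e-05), and −0.22 with GC and length offsets (adjusted p = 0.0422).

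JARID2 (chr6:15246296-15522040, plus strand) stood at 24.37, 23.72 and 22.85 CPM in siCtrl and at 19.26, 22.14 and 18.86 CPM in siBAP18. Replicate 2 of siBAP18 lay just below the lowest siCtrl library. The log2 fold change was −0.23 (95% interval −0.39 to −0.07, edgeR quasi-likelihood test, adjusted p = 0.0155), and −0.28 with GC and length offsets (adjusted p = 0.00119). The call was lost without siCtrl replicate 1 (adjusted p = 0.0730), without siBAP18 replicate 1 (adjusted p = 0.0866) and in limma on log2 RPKM at 3 settings (adjusted p = 0.0789 to 0.154).

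PHF19 (chr9:120855652-120894896, minus strand) stood at 24.65, 23.57 and 26.30 CPM in siCtrl and at 29.13, 27.29 and 31.26 CPM in siBAP18. The nearest libraries of the groups were about 1 CPM apart. It rose by 0.23 on the log2 scale (95% interval 0.08 to 0.39, edgeR quasi-likelihood test, adjusted p = 0.0122), and 0.15 with GC and length offsets (adjusted p = 0.0388). The call was lost without siCtrl replicate 1 (adjusted p = 0.0602) or 2 (adjusted p = 0.0916).

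MTF2, PHF19 and PHF1 are alternative Polycomb-like subunits of the same PRC2 form, and their shares of summed RPKM moved. PHF1 itself rose by 0.45 on the log2 scale (SE 0.11, edgeR quasi-likelihood test, adjusted p = 9.73e-04). MTF2 made up 23.8%, 26.1% and 21.9% of the 3 in siCtrl and 14.2%, 16.0% and 13.9% in siBAP18. PHF1 went from 24.7% ± 1.70 to 30.6% ± 0.386 and PHF19 from 51.4% ± 1.40 to 54.7% ± 0.947 (SD, n = 3, exact permutation p = 0.1 for each, the smallest possible). The difference between the log2 fold changes of MTF2 and PHF19 was −0.79, and −0.37 with GC and length offsets. PHF19 was the most abundant of the 3 per length of exon in every library.

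Of the PRC1 members, RING1, a ubiquitin ligase of PRC1, rose in the test, while BMI1 and CBX2 did not pass it. RING1 (chr6:33208495-33212722, plus strand) stood at 22.58, 21.49 and 19.52 CPM in siCtrl and at 24.04, 23.27 and 27.34 CPM in siBAP18. The groups came within 1 CPM of each other. It rose by 0.23 on the log2 scale (95% interval 0.06 to 0.39, edgeR quasi-likelihood test, adjusted p = 0.0213), and 0.04 with GC and length offsets (adjusted p = 0.631). It was also lost without siCtrl replicate 2 (adjusted p = 0.0594), siCtrl replicate 3 (adjusted p = 0.155) or siBAP18 replicate 3 (adjusted p = 0.0639), and in limma on log2(RPKM + 1) without a filter (adjusted p = 0.0605).

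BMI1 (chr10:22321211-22331484, plus strand), a PCGF protein that stimulates the ligase, stood at 17.04, 17.19 and 15.78 CPM in siCtrl and at 17.06, 17.85 and 17.53 CPM in siBAP18. The groups overlapped, and the log2 fold change was 0.07 (95% interval −0.09 to 0.23, edgeR quasi-likelihood test, adjusted p = 0.495). With GC and length offsets it was 0.34 (adjusted p = 2.51e-04). The level of BMI1 is uncertain, because 1000 of its 4283 exonic bases are shared with the read-through gene COMMD3-BMI1, whose log2 fold change was −0.02 (adjusted p = 0.856, same test). BMI1 made up 31.0% ± 1.91 of the summed RPKM of BMI1 and its paralogue PCGF2 in siCtrl and 31.6% ± 1.91 in siBAP18 (SD, n = 3, exact permutation p = 1). CDKN2A, the textbook target of BMI1 that A549 cells have lost, had 0, 0 and 7 counts in siCtrl and 2, 6 and 0 in siBAP18 and was not tested.

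CBX2 (chr17:79778132-79787983, plus strand), a chromodomain reader that also compacts nucleosomes, stood at 28.80, 31.01 and 29.80 CPM in siCtrl and at 26.45, 27.45 and 29.63 CPM in siBAP18. The siBAP18 range reached into the siCtrl range. Its log2 fold change was −0.10 (95% interval −0.25 to 0.05, edgeR quasi-likelihood test, adjusted p = 0.253), and −0.20 with GC and length offsets (adjusted p = 0.00743).

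The paralogues that can take the place of these PRC1 members are named here after their values were seen. RNF2, the ligase paralogous to RING1, fell by 0.47 on the log2 scale (SE 0.12, edgeR quasi-likelihood test, adjusted p = 0.00199), and its value was −0.17 with GC and length offsets (adjusted p = 0.203). RING1 made up 86.3% ± 1.88 of the RPKM of RING1 plus RNF2 in siCtrl and 91.1% ± 1.83 in siBAP18 (SD, n = 3, exact permutation p = 0.1). RPKM shares carry the GC trend, and the difference between the log2 fold changes of RING1 and RNF2 was 0.70 without and 0.21 with the offsets, where neither gene passed the test. CBX8, a chromodomain paralogue of CBX2, rose by 0.54 on the log2 scale (SE 0.08, edgeR quasi-likelihood test, adjusted p = 2.27e-06).

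**Figure D3:**
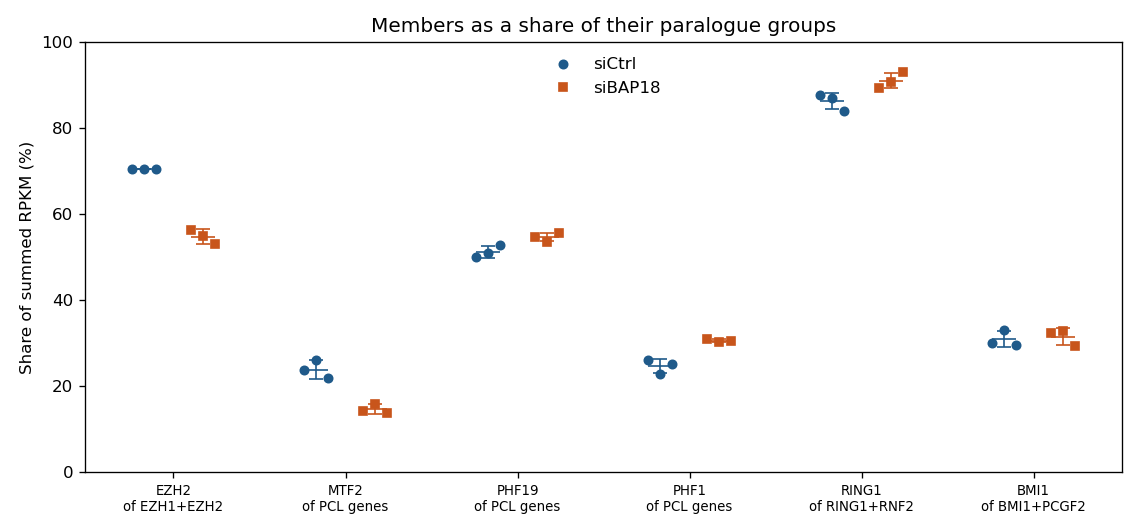
Share of summed RPKM that each gene takes in its paralogue group, in percent, with circles for siCtrl, squares for siBAP18 and bars for the mean and SD of 3 libraries. PCL genes are PHF1, MTF2 and PHF19. The EZH2 share moves from 70.6% to 54.9% and the MTF2 share from 23.9% to 14.7%, while that of BMI1 overlaps between groups.

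Compared per length of exon in siCtrl, RING1 was the highest member at 11.6 ± 0.871 RPKM, followed by EZH2 at 7.98 ± 0.251, CBX2 at 5.25 ± 0.247 and SUZ12 at 4.32 ± 0.0896 (SD, n = 3). JARID2 at 3.93, BMI1 at 3.89, PHF19 at 3.68, EZH1 at 3.32 and EED at 3.25 RPKM followed, and MTF2 was lowest at 1.71 RPKM. Neighbours whose libraries overlapped in that order were JARID2 and BMI1, BMI1 and PHF19, and EZH1 and EED. In siBAP18 the order was RING1 at 13.7, EZH2 at 4.99, CBX2 at 4.90, PHF19 at 4.34, BMI1 and EZH1 at 4.09, JARID2 at 3.35, EED at 3.00, SUZ12 at 2.63 and MTF2 at 1.17 RPKM. SUZ12 stood in the fourth place in siCtrl and in the ninth in siBAP18. From PHF19 through BMI1, EZH1, JARID2 and EED to SUZ12 the libraries of each neighbouring pair overlapped in siBAP18, so neighbouring places were not separate. Places further apart could be. SUZ12, at 2.37 to 2.77 RPKM in siBAP18, overlapped EED but lay below every siBAP18 library of PHF19, BMI1, EZH1 and JARID2. The libraries of EZH2 and CBX2, apart in siCtrl, overlapped in siBAP18.

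Among the siBAP18 libraries, replicate 3 stood at an end for 8 of the 10 members. With 3 libraries, any given library is lowest or highest for many genes, and the share over all genes was not computed. Replicate 2 also stood at an end for EZH1, EED, JARID2, PHF19, MTF2, BMI1 and RING1, so this was not particular to replicate 3. Replicate 3 was the lowest siBAP18 library for 5 members, EZH2, EZH1, SUZ12, EED and JARID2. It was the highest for 3, PHF19, CBX2 and RING1, which are the 3 members richest in GC. Replicate 3 was also the smallest library and the one with the highest rho between deviation and GC content. Without it the log2 fold change of EZH2 was −0.58 and the other members kept their direction.

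By Euclidean distance between centred log2 CPM over the 6 libraries, the 3 genes whose profile was nearest to that of EZH2, among 9928 genes of average log2 CPM 3 or more, were SNX5, AC159540.1 and SOS1. Their Euclidean distances were 0.0598, 0.0682 and 0.0784 on the log2 scale, and their log2 fold changes were −0.72, −0.64 and −0.68.

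Around the members, the other PRC2 subunits moved both ways. Of 8 such genes 7 were tested, of which 3 fell and 2 rose at an adjusted p of 0.05 (edgeR quasi-likelihood test, beside 25.1% and 24.5% of all genes), with a median log2 fold change of 0.06. With GC and length offsets 2 were lower and 4 higher (beside 23.9% and 26% of all genes in that fit), and the median was 0.28. EPOP, listed as C17orf96, which joins the Polycomb-like form of PRC2, rose from 9.93 ± 0.643 to 18.7 ± 1.22 CPM (SD, n = 3), a log2 fold change of 0.91 (edgeR quasi-likelihood test, adjusted p = 2.91e-09). RBBP4, the histone chaperone in the PRC2 core and in other chromatin complexes, fell from 72.0 ± 0.881 to 54.2 ± 4.57 CPM, a log2 fold change of −0.41 (adjusted p = 3.02e-05), and was at −0.18 with GC and length offsets (adjusted p = 0.00921).

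Of 25 other PRC1 subunits, all tested, 7 fell and 11 rose at an adjusted p of 0.05 (edgeR quasi-likelihood test, beside 25.1% and 24.5% of all genes), with a median log2 fold change of 0.07. With GC and length offsets 5 were lower and 12 higher, beside 23.9% and 26% of all genes in that fit. KDM2B, the CpG-binding protein that brings a variant PRC1 to unmethylated islands, was the only one past both thresholds, and only just. It stood at 20.14, 22.58 and 20.52 CPM in siCtrl and at 41.51, 43.65 and 41.32 CPM in siBAP18, a log2 fold change of 1.00 (95% interval 0.85 to 1.15, edgeR quasi-likelihood test, adjusted p = 2.48e-11), and 0.96 with GC and length offsets. It stayed past an adjusted p of 0.05 in all 18 alternatives, but its log2 fold change was under 1 in 8 of them: without a filter, with the offsets, in the 3 limma fits, without siCtrl replicate 1 or 3 and without siBAP18 replicate 2, with 0.69 the lowest value. FBRS, a subunit of a variant PRC1, rose by 0.78 on the log2 scale (SE 0.07, adjusted p = 3.12e-09, same test).

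In a list of enzymes that take Polycomb marks off histones and of their partner proteins, most genes were higher. Of 10 listed 9 were tested, and 7 were higher and 1 lower at an adjusted p of 0.05 (edgeR quasi-likelihood test, beside 24.5% and 25.1% of all genes), with a median log2 fold change of 0.33. KDM6B, a demethylase of the PRC2 mark, stood at 22.43, 24.67 and 22.94 CPM in siCtrl and at 51.40, 47.98 and 44.94 CPM in siBAP18. Its log2 fold change was 1.04 (95% interval 0.89 to 1.20, adjusted p = 1.53e-11, same test) and 0.96 with GC and length offsets. It was also under 1 without siBAP18 replicate 1 (0.99) and in limma on log2(RPKM + 1) (0.86). Of the other enzymes listed, BAP1 rose by 0.23 on the log2 scale (edgeR quasi-likelihood test, adjusted p = 0.00572). KDM6A, at 0.20, did not pass the test (adjusted p = 0.147). MBD6, a partner of the deubiquitinase BAP1 that removes the PRC1 mark, rose by 0.75 on the log2 scale (SE 0.09, adjusted p = 9.26e-08, same test). With GC and length offsets 8 of the list were higher and none lower, beside 26% and 23.9% of all genes in that fit.

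**Figure D4:**
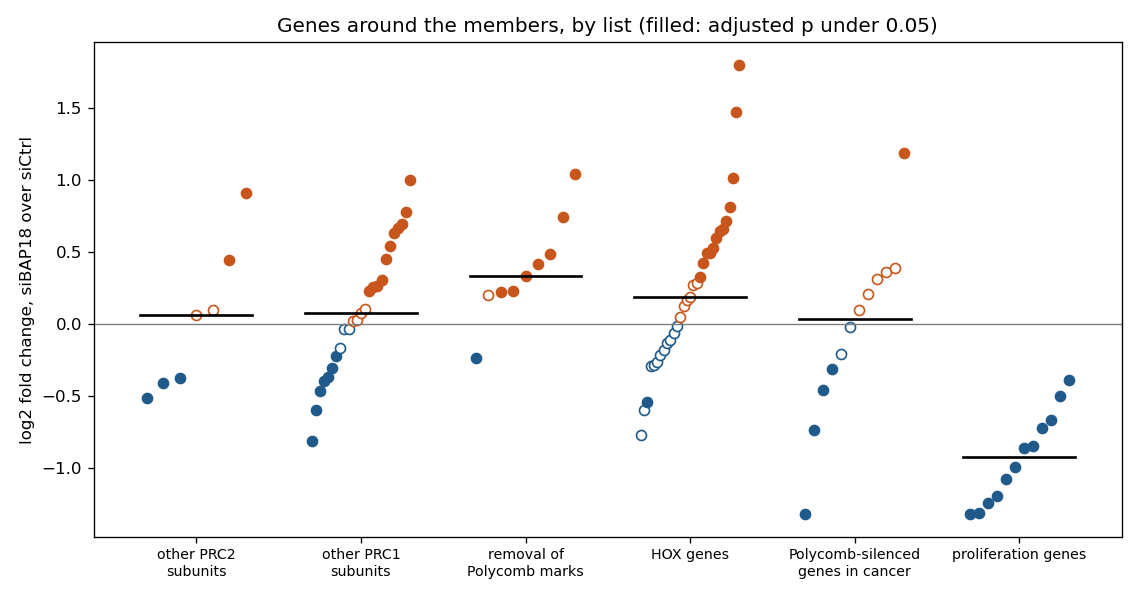
Log2 fold change, siBAP18 over siCtrl, of every tested gene of the 6 lists around the members, sorted within each list. Filled points passed an adjusted p of 0.05 and open points did not. Black bars mark the medians, from 0.33 for enzymes that remove Polycomb marks and their partners to −0.93 for proliferation genes.

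HOX genes, the classical Polycomb targets that give cells their position along the body axis, were more often higher than lower at an adjusted p of 0.05. Of 39 listed, 36 were in the table and 31 were tested, and 13 were higher and 1 lower (edgeR quasi-likelihood test, beside 24.5% and 25.1% of all genes), with a median log2 fold change of 0.19. The higher genes were 5 of 11 tested in HOXA, 1 of 9 in HOXB, 5 of 8 in HOXC and 2 of 3 in HOXD. HOXC10 stood at 2.16, 2.36 and 2.69 CPM in siCtrl and at 7.75, 6.25 and 6.02 CPM in siBAP18, a log2 fold change of 1.48 (95% interval 1.19 to 1.76, adjusted p = 2.05e-09, same test). Its value was 1.33 with GC and length offsets and 0.93 in limma on log2(RPKM + 1). Other HOX genes past both thresholds rested on few reads. HOXD11 had 2, 8 and 7 counts in siCtrl and 31, 20 and 13 in siBAP18, a log2 fold change of 1.80 (SE 0.50, adjusted p = 0.00429). Its value was 1.63 with GC and length offsets and 0.18 in limma on log2(RPKM + 1) without a filter. HOXA11 had 11, 18 and 10 counts in siCtrl and 36, 30 and 18 in siBAP18, a log2 fold change of 1.02 (SE 0.38, adjusted p = 0.0295), and its call was lost without siCtrl replicate 1 or 3, without siBAP18 replicate 1, in DESeq2's Wald test, in limma without a filter and with GC and length offsets (adjusted p = 0.0505 to 0.136). With those offsets 9 HOX genes were higher and 5 lower, beside 26% and 23.9% of all genes in that fit. HOX clusters hold antisense transcripts, and whether strand was used in counting is not given in the sources used here, so reads of a HOX gene and of an antisense partner cannot be told apart.

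**Figure D5:**
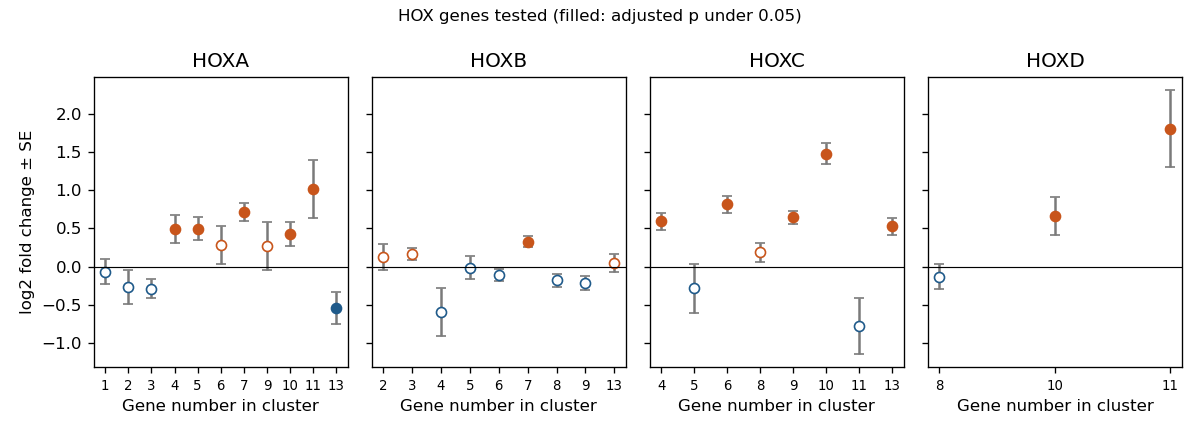
Log2 fold change with its SE, siBAP18 over siCtrl, of the 31 HOX genes tested, by cluster and by gene number. Filled points passed an adjusted p of 0.05, and the higher ones are 5 in HOXA, 1 in HOXB, 5 in HOXC and 2 in HOXD.

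In a list of genes often silenced by Polycomb in carcinomas, more fell than rose in the main test, and most were low in these cells. Of the 15 genes, 10 were under 1 RPKM in every library. Of 15 listed 12 were tested, of which 4 fell and 1 rose at an adjusted p of 0.05 (edgeR quasi-likelihood test, beside the same shares), with a median log2 fold change of 0.04. With GC and length offsets 2 were lower and 2 higher (beside 23.9% and 26% of all genes in that fit), and the median was −0.05. CDH1, the epithelial cadherin, was not silent in siCtrl and fell from 63.9 ± 1.27 to 25.5 ± 0.202 CPM (SD, n = 3). GATA6, a lineage factor of lung and gut, rose from 1.19 ± 0.0571 to 2.70 ± 0.403 CPM. Their log2 fold changes were −1.32 (adjusted p = 3.81e-14) and 1.19 (adjusted p = 5.92e-06) in the same test. GATA6, the only gene that rose in it, averaged 0.302 RPKM in siCtrl and 0.689 RPKM in siBAP18. The limma fits that left out genes averaging under 0.5 RPKM did not include GATA6. Of the 6 genes of the list in those fits, 3 fell and 0 rose.

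Because EZH2 and SUZ12 are known to be higher in dividing cells, a list of 12 proliferation genes is given beside them. All 12 were lower at an adjusted p of 0.05 (edgeR quasi-likelihood test, beside 25.1% of all genes), with a median log2 fold change of −0.93, and their RPKM summed to 249 to 252 in siCtrl and 129 to 141 in siBAP18. TOP2A, MKI67 and CDK1, which serve chromosome untangling, mark cycling cells and drive mitosis, had log2 fold changes of −1.31, −1.20 and −1.25. E2F1, an activator of S phase genes, fell from 7.68 ± 0.592 to 3.65 ± 0.519 CPM (SD, n = 3), a log2 fold change of −1.08 (SE 0.12, adjusted p = 6.07e-08, same test). The part of proliferation in the changes of EZH2 and SUZ12 was not tested.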

How the data were processed

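Poly(A) RNA of 6 A549 cultures was sequenced from strand-marked paired-end libraries. The authors deposited raw counts per gene and RPKM values, the latter equal to the count per kilobase of listed exonic length relative to the column total (largest relative difference 5.3e-15). The aligner, the counting program and the use of strand are not given in the sources used here, and the submitters' processing notes list the builds hg38 and GRCm38. Positions of genes are those of the deposited table and 3′ UTRs those of GENCODE 29.

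Counts were fitted in R 4.3.3 with edgeR 4.0.16 (filterByExpr, TMM scaling, quasi-likelihood test of siBAP18 against siCtrl, Benjamini-Hochberg adjustment over 20776 genes). Calls were made under an adjusted p of 0.05, and past both thresholds also at an absolute log2 fold change over 1. SE and 95% intervals come from the same test. Shares and ratios of RPKM were compared by exact permutation, two-sided. There were 18 alternatives, which included limma 3.58.1, DESeq2 1.42.0 and offsets for GC content and length (99.1% of genes tested had a sequence). The main edgeR fit was tried on simulated counts with few changed genes and no GC trend, unlike these data. Libraries of a group were compared for copies and differed beyond sampling noise (chi-square per degree of freedom 3.94 to 23.3). Sequences were read with Python 3.11.15.

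The members and lists were chosen with earlier results of these data known. All 10 members are described. In each further list the genes past both thresholds are named, at most 4 by smallest adjusted p, and where fewer than 2 passed, those with the smallest adjusted p up to 2. Paralogues of members, and the genes nearest to EZH2 over the 6 libraries, are named besides. Some results of these rules are not reported here. Intervals cover the spread between these libraries only.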

Additional observations from a re-analysis of the deposited data

How the results depend on the processing

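EZH2, SUZ12 and MTF2 kept their direction and their call under all 18 alternatives, with log2 fold changes of −0.73 to −0.55, −0.75 to −0.38 and −0.60 to −0.22. EED turned from −0.12 to 0.28 with GC and length offsets and gained a call. That fit also moved SUZ12, MTF2, PHF19, BMI1, CBX2 and RING1 by over 1.5 times. BMI1 and CBX2 gained a call in it and RING1 lost its call, and the cause was not tested. Under those offsets 7 rather than 11 other Polycomb genes were lower, beside 23.9% rather than 25.1% of all genes. In limma on log2(RPKM + 1) without a filter 1 member rather than 3 was higher and 6 other Polycomb genes were lower. That fit called fewer genes in general, 7825 of 35474, beside 10305 of 20776 in the main fit. In limma with a mean RPKM of at least 0.5, 9 rather than 14 of the HOX, Polycomb-silenced and proliferation genes were higher, at a pseudocount of 1 or 0.1. Those fits held fewer genes of the lists, 23 rather than 31 HOX genes and 6 rather than 12 Polycomb-silenced genes. Left out were HOXA11, HOXD11 and GATA6, which were higher in the main fit. Of all 16484 genes in those fits, 8296 were called at a pseudocount of 1 and 8231 at 0.1. Beyond the genes left out, the cause was not tested. Leaving out 1 library at a time gave 3 to 5 members lower and 1 to 3 higher, with 1 higher without siCtrl replicate 2. Calls over all genes moved too, from 8967 of 21207 without siCtrl replicate 1 to 10602 of 21139 without siBAP18 replicate 2. Without siCtrl replicate 2 they were 9046 of 21538. Residuals of libraries with the same replicate number had r of −0.0166, 0.0506 and 0.00379, which cannot settle whether cultures were set up in pairs. A replicate block gave 4 members lower and 3 higher, as without it, with 10803 of 20776 genes called. Depth did not limit the members, at 278 counts or more in every library, but did limit HOXD11, HOXA11 and CDKN2A.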
